A study of Homo sapiens with 4 samples.

Results

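Nuclear genes of oxidative phosphorylation were followed in 2 cell lines of anaplastic thyroid cancer given dihydrotanshinone. The genes were taken by their names in the deposited gene tables: the NDUFA, NDUFB, NDUFC, NDUFS and NDUFV genes of complex I, SDHA to SDHD of complex II, the UQCR genes of complex III, the COX4 to COX8 genes of complex IV and the ATP5 genes of complex V. Of 26485 Gene IDs, 88 carried such a name, and the 81 that averaged 1 TPM or more are described here. Complex I holds 37 of them, complex II 4, complex III 10, complex IV 11 and complex V 19. The other 7, COX4I2, COX6A2, COX6B2, COX7A1, COX7B2, COX8C and ATP5L2, lay under that level. By RefSeq annotation 79 of the 81 are protein-coding. The entries of 21 members overlap another Gene ID on either strand, and since the strand used in counting is not given in the sources used here, reads of such pairs cannot be told apart. UQCRBP1 and ATP5EP2 are pseudogenes, and ATP5J2-PTCD1 is a read-through of ATP5J2 into its neighbour. The tables use older names: NDUFA4 is now counted with complex IV, and ATP5S and ATP5SL are now assembly factors rather than subunits. Some genes of the same complexes have names outside the rule, among them CYC1 of complex III, NDUFAB1 of complex I and the ATP synthase inhibitor ATPIF1, and they are given apart from the 81.

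Oxidative phosphorylation makes ATP at the inner mitochondrial membrane. Complexes I and II pass electrons from NADH and succinate to ubiquinone, complex III passes them on to cytochrome c, and complex IV hands them to oxygen. Complexes I, III and IV pump protons as they do so, and complex V, the ATP synthase, lets the protons flow back and makes ATP. Each complex has a core that carries out the reaction and, in all but complex II, accessory subunits around it. Part of the core of complexes I, III, IV and V is encoded in mitochondrial DNA, which the rule on names leaves out, so the catalytic subunits of complex IV are not among the genes described. Anaplastic thyroid cancer is an undifferentiated tumour of the thyroid follicular epithelium.

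The 4 libraries came from 8505C cells given 1.5 µM DHT, 8505C cells given DMSO, SW1736 cells given 1.5 µM DHT and SW1736 cells given DMSO, each for 24 h. Both lines were derived from anaplastic thyroid cancer, and DMSO is the solvent that served as vehicle. DHT is the abbreviation used for dihydrotanshinone, a diterpenoid of Salvia root, and not for the androgen. Each group was 1 mRNA library, so no difference has a replicate check and no test or p-value is given.

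The ratio of coverage to FPKM gave 4.15, 3.27, 3.85 and 3.67 Gb of aligned bases in these libraries in the same order. Values are TPM, which scales reads by gene length and by the sum over all genes. Differences are in log2 of TPM + 1, and this makes the change of low genes look smaller than it is. The members are set beside 11711 protein-coding genes that averaged 1 TPM or more. The thyroid follicular genes TG and TSHR were at or near 0 in every library, whereas PAX8 was present in SW1736 and NKX2-1 in 8505C. Of 6 epithelial markers KRT7, KRT8 and KRT18 were at 403 TPM or more in every library, KRT19 had 883 and 607 TPM in SW1736 with DHT and DMSO and was listed at 0 in both 8505C libraries, and EPCAM and CDH1 were at or near 0 in all 4. Of 6 immune markers only CD68 and CD14 reached a mean of 1 TPM, and of 6 endothelial markers only CDH5 and TIE1, with 147 and 59.7 TPM in 8505C with DHT, 128 and 43.4 TPM in 8505C with DMSO, and 0 in both SW1736 libraries. None of the 5 muscle and 4 testis markers reached it.

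The members together held 19595 TPM in 8505C with DHT, 19677 TPM in 8505C with DMSO, 22176 TPM in SW1736 with DHT and 21423 TPM in SW1736 with DMSO. These are 1.96%, 1.97%, 2.22% and 2.14% of all transcripts in that order of libraries. Their median level was 178, 184, 187 and 199 TPM, against 22.7, 23.2, 16.5 and 24.4 TPM for all genes tested. Between 93.8% and 95.1% of members lay above the median gene of their library. In bulk RNA, fewer cells with an mRNA and less of it per cell cannot be told apart.

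Within a library the levels of members differed widely, and the same few genes stood at the top of most complexes. ATP5E, which encodes the small epsilon subunit of the ATP synthase stalk (chromosome 20, 59028678 to 59032367, hg38), was the most abundant member in every library, with 1194 TPM in 8505C with DHT, 1182 TPM in 8505C with DMSO, 1836 TPM in SW1736 with DHT and 1636 TPM in SW1736 with DMSO. The read-through SLMO2-ATP5E, which shares its strand and exons, had 10.2, 15.0, 18.9 and 16.5 TPM in that order. COX8A, a small subunit of complex IV (chromosome 11, 63974607 to 63976543), led its complex with 708, 710.1, 894 and 745 TPM. UQCRH, the hinge protein of complex III (chromosome 1, 46303613 to 46316777), led complex III with 374, 378, 603 and 391 TPM. In complex I the leader depended on the line. NDUFS6, an accessory subunit that binds zinc, led in both 8505C libraries with 764 TPM with DHT and 736 TPM with DMSO, and NDUFA1, an accessory subunit of the membrane arm, led in both SW1736 libraries with 541 TPM in each. SDHC, a membrane anchor, was the lowest of complex II in every library, at 44.3, 46.3, 35.4 and 46.8 TPM. NDUFA5, an accessory subunit of the matrix arm, was the lowest of complex I in every library, at 13.3, 15.1, 10.9 and 24.7 TPM. In complex II, SDHA led in 8505C with 425 TPM with DHT and 418 TPM with DMSO, and SDHB led in SW1736 with 169 TPM with DHT and 168 TPM with DMSO. The complex IV genes ran from 171 to 708 TPM in 8505C with DHT and from 145 to 894 TPM in SW1736 with DHT.

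**Figure D1:**
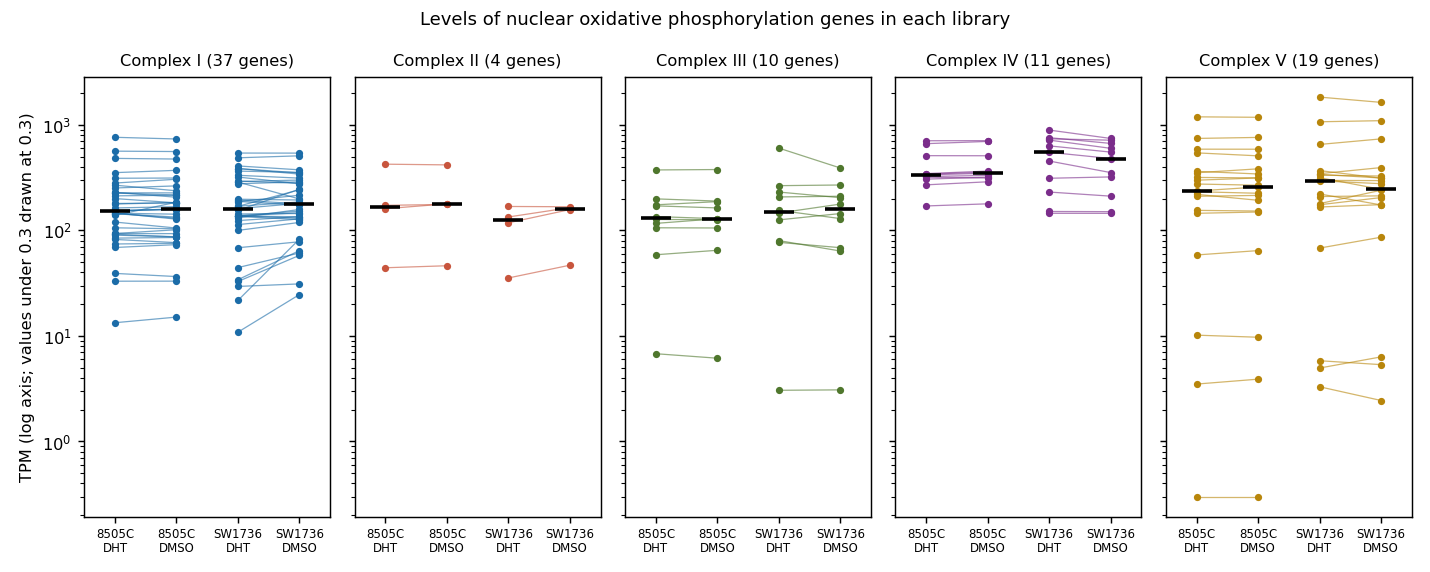
Level of each of the 81 genes in each library, in TPM on a log axis, with 1 panel per complex. Points are genes, thin lines join DHT and DMSO of a line, and black bars are medians, which for complex IV were 337, 348, 550.5 and 481 TPM from left to right. ATP5J2-PTCD1, listed at 0 in 8505C, is drawn at 0.3.

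In SW1736, the members as a group stayed near their DMSO level with DHT while most mRNAs were lower. The median log2 difference of the members was 0.00, against -0.42 for all genes tested. No member was at least 2-fold higher, against 2.78% of all genes tested, and 2 were at least 2-fold lower, against 15.6%. At 1.5-fold, 1 was higher, against 4.7%, and 5 were lower, against 38.2%. Of the 81, 59 lay within 1.2-fold of their DMSO level, against 29% of all genes tested, and 41 lay above 0, against 20.8%. Since TPM has a fixed sum, these values are relative to the other transcripts: centred on the median gene, the members' median was 0.42 higher, and 73 of 81 lay above that gene, against 50%.

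By complex the medians ran from complex II, at -0.34, through complex I at -0.06, complex V at 0.01 and complex III at 0.08, to complex IV at 0.18. Of the complex IV genes 10 of 11 lay above 0, and all 11 lay above the median gene. These positions are on the TPM scale, and the complex I and complex II medians lie above 0 once centred on the median gene.

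**Figure D2:**
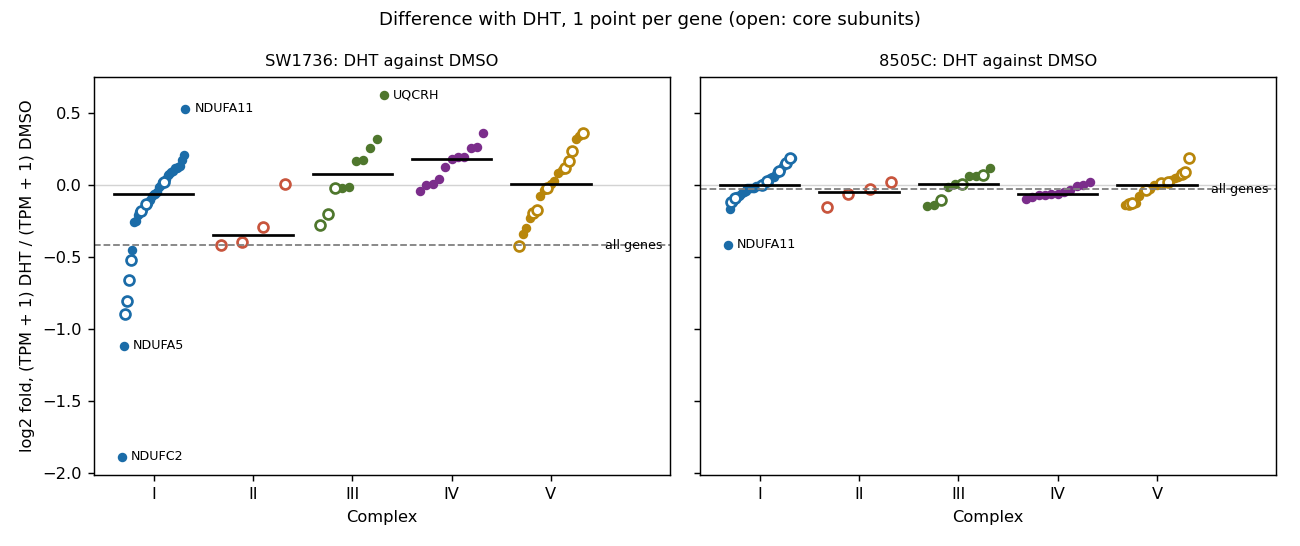
Log2 difference of each gene between DHT and DMSO, on the (TPM + 1) scale, in SW1736 (left) and 8505C (right), by complex. Open points are core subunits, black bars are medians of a complex, and the dashed line is the median of all genes tested, -0.42 in SW1736 and -0.03 in 8505C. NDUFC2 and NDUFA5 stand lowest in SW1736, and only NDUFA11 stands apart in 8505C.

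All 5 members at least 1.5-fold lower in SW1736 with DHT were complex I genes. NDUFC2, an accessory subunit of the membrane arm (chromosome 11, 78068347 to 78080219), had 21.7 TPM in SW1736 with DHT and 82.9 TPM in SW1736 with DMSO, a log2 difference of -1.88. It had 74.4 TPM in 8505C with DHT and 75.5 TPM in 8505C with DMSO, so the SW1736 library with DHT stands alone among the 4. In that library alone the tables also list the read-through NDUFC2-KCTD14, on the same strand, at 23.6 TPM, and at 0 in the other 3. The sum of both was 45.4 TPM in SW1736 with DHT and 82.9 TPM in SW1736 with DMSO, a log2 difference of -0.86, which is no longer 2-fold. How StringTie divided the reads between these overlapping entries was not tested.

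NDUFA5 (chromosome 7, 123536998 to 123601651) had 10.9 TPM in SW1736 with DHT and 24.7 TPM in SW1736 with DMSO, a log2 difference of -1.11. In 8505C it had 13.3 TPM with DHT and 15.1 TPM with DMSO. Its level in SW1736 with DHT is the lowest of the 4 libraries, and its level in SW1736 with DMSO the highest. Centred on the median gene the difference is -0.70, under 2-fold.

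Among the nuclear core subunits of complex I, NDUFS1, NDUFV2 and NDUFS8 had a difference below that of the median gene in SW1736. NDUFS1, the large subunit that carries iron-sulphur clusters of the matrix arm (chromosome 2, 206123079 to 206159519), had 32.8 TPM in SW1736 with DHT and 58.1 TPM in SW1736 with DMSO, a log2 difference of -0.80. NDUFV2, which holds an iron-sulphur cluster beside the flavin (chromosome 18, 9102630 to 9134345), had 155 TPM with DHT and 246 TPM with DMSO, a difference of -0.66. Both NDUFS1 and NDUFV2 had more in either 8505C library than in either SW1736 library: 68.9 and 73.4 TPM of NDUFS1, and 281 and 306 TPM of NDUFV2, with DHT first. NDUFS8, another iron-sulphur subunit (chromosome 11, 68030617 to 68036647), had 169 TPM in SW1736 with DHT and 243 TPM in SW1736 with DMSO, a difference of -0.52. It had 229.8 TPM in 8505C with DHT and 206 TPM in 8505C with DMSO, between the SW1736 values. NDUFS3 stood at -0.18, NDUFS7 at -0.13 and NDUFV1, which binds NADH and flavin, at 0.02. The 7 core subunits together summed to 872 TPM in SW1736 with DHT and 1121 TPM in SW1736 with DMSO. The 30 other genes placed in complex I by name, NDUFA4 among them, summed to 6469 TPM with DHT and 6407 TPM with DMSO. The median difference was -0.52 over the core subunits and -0.03 over the 30 others. Centred on the median gene, NDUFS1 stood at -0.39, NDUFV2 at -0.24 and NDUFS8 at -0.10, so the direction of these 3 did not depend on that choice.

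At the other end of complex I, NDUFA11, an accessory subunit of the membrane arm that takes part in its assembly (chromosome 19, 5891276 to 5904013), had 287 TPM in SW1736 with DHT and 199 TPM in SW1736 with DMSO, a log2 difference of 0.53. In 8505C it had 139 TPM with DHT and 185 TPM with DMSO, a difference of -0.41, so the lines lay on opposite sides of 0. No other member lay at least 1.2-fold from 0 in both lines in opposite directions.

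Complex II was lower for 3 of its 4 genes on the TPM scale, and for none of them once centred on the median gene. SDHA, the flavin subunit that oxidises succinate (chromosome 5, 218223 to 257082), had 118 TPM in SW1736 with DHT and 158 TPM in SW1736 with DMSO, a log2 difference of -0.41. SDHC and SDHD, the membrane anchors, stood at -0.39 and -0.29, and SDHB, the iron-sulphur subunit, at 0.01 with 169 TPM with DHT and 168 TPM with DMSO. Centred in that way SDHA stands at 0.00, SDHC at 0.03, SDHD at 0.13 and SDHB at 0.43. Beside genes of like mRNA length, given further on, SDHA, SDHC and SDHD were again lower.

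In complex III the median log2 difference was -0.20 over the 3 core subunits and 0.18 over the 7 other genes. UQCRH had 603 TPM in SW1736 with DHT and 391 TPM in SW1736 with DMSO, a log2 difference of 0.63, which is the highest of the 81. With 374 and 378 TPM in 8505C with DHT and DMSO, the SW1736 library with DHT is the one that stands apart. The core subunits UQCRC1, UQCRC2 and UQCRFS1, the last of them the Rieske iron-sulphur protein, stood at -0.02, -0.20 and -0.28. Beside genes of like mRNA length, given further on, all 3 were higher. CYC1, the cytochrome c1 of complex III and outside the rule, had 219 TPM in SW1736 with DHT and 188.5 TPM with DMSO, a difference of 0.22.

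The complex IV genes here are nuclear genes taken by name, without the mitochondrially encoded core, and NDUFA4 is kept under complex I. Their differences ran from -0.04 for COX5A to 0.36 for COX6A1 (chromosome 12, 120438090 to 120440742). COX6A1 had 455 TPM in SW1736 with DHT and 354 TPM in SW1736 with DMSO. COX4I1, which takes part in the regulation of the enzyme by ATP, had 757 TPM with DHT and 668 TPM with DMSO, a difference of 0.18.

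In complex V 10 of 19 genes lay above 0, and the subunits of the catalytic head lay on either side. ATP5A1, the alpha subunit (chromosome 18, 46084144 to 46104233), had 179.6 TPM in SW1736 with DHT and 241 TPM in SW1736 with DMSO, a log2 difference of -0.42, the lowest of complex V. ATP5B, the catalytic beta subunit, had 653 TPM with DHT and 738 TPM with DMSO, a difference of -0.17. ATP5D, the delta subunit of the central stalk (chromosome 19, 1241750 to 1244825), had 316 TPM with DHT and 245 TPM with DMSO, a difference of 0.37, the highest of complex V. ATP5C1, the gamma subunit that turns within the head, stood at -0.19 and ATP5E at 0.17. ATP5I, a small membrane subunit, stood at 0.34. Centred on the median gene, ATP5A1 falls on that gene and the other complex V genes named here lie above it. The inhibitor ATPIF1, outside the rule, had 354 TPM in SW1736 with DHT and 348 TPM in SW1736 with DMSO, a difference of 0.02.

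The promoters of the members that stood highest and lowest in SW1736 with DHT, among those with a sequence at hand, are shown because they are where DNA-binding factors of the mitochondrial programme would be sought. They are RefSeq sequences of GRCh38.p14, 250 bases before to 50 after the start of the gene in RefSeq, 5′ to 3′ on the strand of the gene. The NDUFA5 and NDUFS1 windows lie inside the deposited entries of those genes. They do not reach the starts on that strand, 123601651 for NDUFA5 and 206159519 for NDUFS1. Capitals mark motif matches described with all promoters further on: an ETS match in UQCRH, an E-box and then an NRF1 match in NDUFA11, and an Sp1 match in NDUFA5 and in NDUFS1. The windows are chr1:46303448-46303747 (+), chr19:5903741-5904040 (-), chr7:123557769-123558068 (-) and chr2:206159160-206159459 (-).
UQCRH: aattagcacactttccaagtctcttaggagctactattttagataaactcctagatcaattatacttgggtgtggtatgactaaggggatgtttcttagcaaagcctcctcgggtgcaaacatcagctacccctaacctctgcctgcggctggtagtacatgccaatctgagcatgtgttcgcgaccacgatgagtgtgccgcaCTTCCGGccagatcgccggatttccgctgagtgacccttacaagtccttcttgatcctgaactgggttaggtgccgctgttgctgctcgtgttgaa
NDUFA11: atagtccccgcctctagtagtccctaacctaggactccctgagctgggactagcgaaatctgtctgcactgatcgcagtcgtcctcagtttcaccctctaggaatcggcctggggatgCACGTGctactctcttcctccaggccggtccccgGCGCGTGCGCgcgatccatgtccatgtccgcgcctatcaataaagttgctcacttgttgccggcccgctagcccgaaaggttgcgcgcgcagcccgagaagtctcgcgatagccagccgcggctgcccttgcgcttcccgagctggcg
NDUFA5: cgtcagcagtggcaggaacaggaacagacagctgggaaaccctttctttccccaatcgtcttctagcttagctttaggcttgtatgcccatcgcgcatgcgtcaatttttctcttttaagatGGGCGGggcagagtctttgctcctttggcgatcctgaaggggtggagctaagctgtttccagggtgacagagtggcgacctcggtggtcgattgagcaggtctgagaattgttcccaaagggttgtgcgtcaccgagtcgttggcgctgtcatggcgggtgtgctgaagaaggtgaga
NDUFS1: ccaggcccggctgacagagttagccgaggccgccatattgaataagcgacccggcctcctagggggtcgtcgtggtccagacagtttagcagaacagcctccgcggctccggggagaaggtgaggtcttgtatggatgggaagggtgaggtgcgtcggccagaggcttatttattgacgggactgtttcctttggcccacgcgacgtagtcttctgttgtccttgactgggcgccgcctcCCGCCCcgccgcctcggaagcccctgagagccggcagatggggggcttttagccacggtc

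Motifs of factors tied to respiratory genes were counted in such promoters on both strands. A promoter was at hand for 64 of the 81 members, NDUFC2 and ATP5B not among them, and for 9691 of the genes tested. The NRF1 motif, GCGCA and GCGC with any base between them, was in 15 of 64 members (23.4%), 11.8% of genes tested and 6.05% of all 27305 promoters. The ETS motif CCGGAAG, which GABP binds, was in 19 members (29.7%), 20.2% of genes tested and 10.6% of all promoters. At least 1 of these motifs was in 31 members (48.4%) and in 29.3% of genes tested, and both were in SDHD, UQCR11 and ATP5I. The YY1 motif, AAGATG followed directly by GCGGC, was in 4 members (6.25%), NDUFA9, NDUFS4, SDHB and UQCRC1, against 2.21% of genes tested. By contrast the Sp1 motif GGGCGG was in 39 members (60.9%) and 70.3% of genes tested, TATAAA in 5 (7.81%) and 5.88%, and the E-box CACGTG in 7 (10.9%) and 9.88%. These motifs could overlap one another in a promoter, and a match is letters, not a bound site. Members with the ETS motif had a median log2 difference of 0.18 in SW1736 and those without it -0.04, a description without a test. The median was -0.02 with the NRF1 motif and 0.02 without it. The factors themselves are described with the other mitochondrial genes.

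Differences in SW1736 followed mRNA length across all genes, and most members have short mRNAs. The median annotated mRNA length was 960.5 bases for the 78 members with a value and 2851 bases for the genes tested. With the genes tested in 10 bins of equal size by length, the median log2 difference ran from -0.01 in the shortest bin, with mRNAs of up to 1198 bases, to -0.89 in the longest. The shortest bin held 50 members, with a median of 0.02. Across genes, which are not independent replicates, Spearman's rho of the difference and length was -0.34 over the 78 members and -0.43 over 11618 genes tested.

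Set against the median of its own length bin, the members' median was 0.08 and 51 of 78 lay above, where the gap to the median gene of all lengths was 0.42. Complex IV kept all 11 genes above the median of their bin. Complex II had a median of -0.19 relative to the bins, with SDHC at -0.38, SDHD at -0.28, SDHA at -0.09 and SDHB at 0.02. In complex III all 3 core subunits lay above their bins, with a median of 0.22, against 0.48 over 6 other genes with a length. Among these 6, UQCRHL stood at 0.65 with an annotated mRNA of 2180 bases. That is longer than its deposited entry (chromosome 1, 15807162 to 15807699), so its bin is uncertain. NDUFC2 stood at -1.64, NDUFA5 at -0.87, NDUFV2 at -0.65, NDUFS8 at -0.51 and NDUFS1 at -0.41 relative to their bins. UQCRH stood 0.63 above and NDUFA11 0.69 above. NDUFA9, an accessory subunit annotated with an mRNA of 8363 bases, had a difference of -0.25 and lay 0.65 above its bin. Annotated lengths are those of full-length transcripts, and which of them these cells made was not tested.

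**Figure D3:**
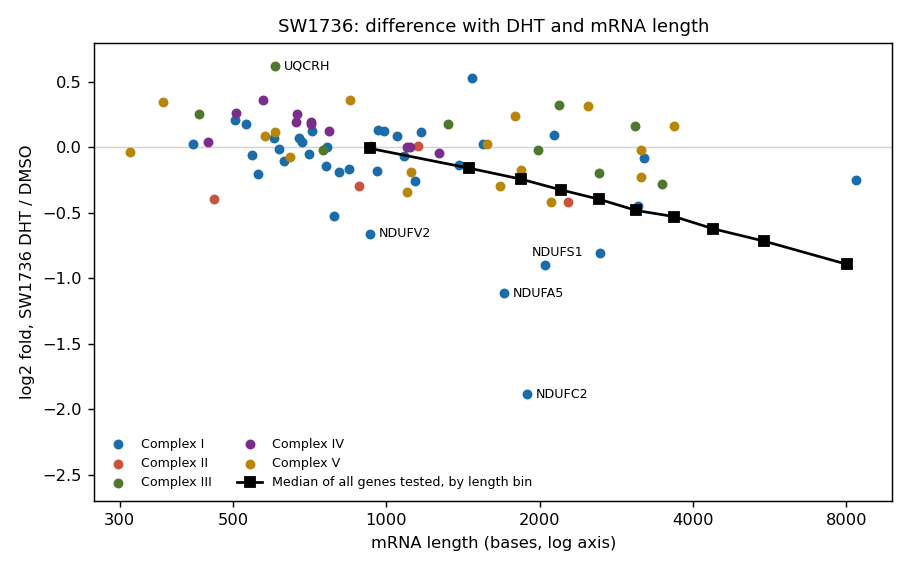
Log2 difference of each gene between DHT and DMSO in SW1736 against its annotated mRNA length in bases, on a log axis, coloured by complex. Black squares are medians of all genes tested by length bin, from -0.01 to -0.89, and the named complex I genes lie below them while UQCRH lies above.

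In 8505C the members hardly differed between DHT and DMSO. The median log2 difference was 0.00, against -0.03 for all genes tested, and no member was at least 2-fold higher or lower, against 0.273% and 0.171% of all genes tested. Of the 81, 80 lay within 1.2-fold, against 88.1%. The exception was NDUFA11, at -0.41. The next lowest were NDUFA5 at -0.17, with 13.3 TPM with DHT and 15.1 TPM with DMSO, and SDHD at -0.15. The highest were NDUFA2 at 0.19, with 146 TPM with DHT and 128 TPM with DMSO, NDUFS7 at 0.19 and ATP5D at 0.19. By complex the medians ran from -0.06 for complex IV to 0.01 for complex III. Complex II ran from SDHD to SDHA at 0.02, complex III from UQCRB at -0.15 to UQCRBP1 at 0.12, complex IV from COX6C at -0.10 to COX6B1 at 0.03, and complex V from ATP5SL at -0.14 to ATP5D. Core subunits of complex I that were lower in SW1736 stood at -0.09 for NDUFS1, -0.12 for NDUFV2 and 0.15 for NDUFS8. Whether the lines differ in these responses could not be tested with 1 library per group.

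The lines themselves differed more than the treatments did in 8505C. Between the DMSO libraries, the median log2 difference of 8505C over SW1736 was -0.09, against -0.05 for all genes tested. At least 2-fold higher in 8505C was 1 member, against 9.96% of all genes tested, and at least 2-fold lower were 4, against 12.6%. At 1.5-fold, 10 were higher, against 18.9%, and 16 were lower, against 24.2%. Within 1.2-fold lay 29 of the 81 members, against 29.5% of all genes tested.

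The member that was higher is SDHA. It had 425 TPM in 8505C with DHT and 118 TPM in SW1736 with DHT, and 418 TPM in 8505C with DMSO and 158 TPM in SW1736 with DMSO, a log2 difference of 1.40 between the DMSO libraries. The other complex II genes did not follow it: SDHB stood at 0.07, SDHC at -0.02 and SDHD at 0.12. SDHA has pseudogenes that resemble it, so its level is uncertain to the extent that reads were shared with them. Of these, SDHAP1 had 14.3 TPM in 8505C with DMSO and 21.1 TPM in SW1736 with DMSO, SDHAP2 14.5 and 26.1 TPM, and SDHAP3 13.5 and 4.97 TPM, each far below SDHA.

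The members that were at least 2-fold lower in 8505C were NDUFA1, NDUFB11, COX7B and ATP5J2-PTCD1. NDUFA1 (chromosome X, 119871771 to 119876666) had 265 TPM in 8505C with DMSO and 541 TPM in SW1736 with DMSO, a difference of -1.03. NDUFB11, another membrane-arm subunit of complex I (chromosome X, 47142216 to 47145210), had 86.8 TPM in 8505C with DMSO and 179 TPM in SW1736 with DMSO, a difference of -1.03. COX7B, a small subunit of complex IV (chromosome X, 77899464 to 77905384), had 356 TPM in 8505C with DMSO and 717 TPM in SW1736 with DMSO, a difference of -1.01. All 3 are on the X chromosome, and all 3 were lower again between the DHT libraries, with 253 TPM in 8505C and 541 TPM in SW1736 for NDUFA1, 90.3 and 194 TPM for NDUFB11, and 342 and 739 TPM for COX7B. ATP5J2-PTCD1 was listed at 0 in 8505C with DHT and with DMSO, and had 3.30 TPM in SW1736 with DHT and 2.44 TPM in SW1736 with DMSO. NDUFA1, NDUFB11 and COX7B sit just past the threshold, and centred on the median gene they lie just inside it, at -0.98, -0.98 and -0.95. Just inside it on the TPM scale, NDUFB9 stood at 1.00 and COX6C, a small complex IV subunit, at 0.99, NDUFB2 at -0.96 and NDUFA3 at -0.94.

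Differences between the lines went by chromosome, a pattern that was looked at after values were seen. On chromosome 8, NDUFB9 had 559 TPM in 8505C with DMSO and 280 TPM in SW1736 with DMSO. COX6C had 289 TPM in 8505C with DMSO and 145 TPM in SW1736 with DMSO, and UQCRB, which helps bind ubiquinone in complex III, had 129 and 68.7 TPM, a difference of 0.90. The other 403 genes tested there had a median of 0.58. CYC1, the cytochrome c1 of complex III, also lies there and had 391 TPM in 8505C with DMSO and 188.5 TPM in SW1736 with DMSO, a difference of 1.05. On chromosome 19, 10 of 11 members were lower in 8505C, with a median of -0.49, from NDUFA3 at -0.94 to NDUFA7 at 0.04, and the other 852 genes had a median of -0.57. On chromosome 7 all 5 members were lower, with a median of -0.90, against -0.63 for 527 other genes. On chromosome X the other 398 genes had a median of -0.76. On chromosome 17, ATP5G1 stood at 0.70 and ATP5H at 0.18, against 0.44 for 716 other genes. The highest of complex V, ATP5I at 0.85, is on chromosome 4, where 399 other genes had a median of 0.58, and the lowest of complex III, UQCR10 at -0.72, is on chromosome 22, where 274 others had a median of -0.27.

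Each member was therefore set beside the median of the genes tested within 10 Mb of it, leaving out other members. Of 81 members, 60 differed between the DMSO libraries in the same direction as their neighbours. Among the 40 whose neighbours had a median at least 0.3 from 0, 37 did so, and the exceptions were NDUFV2, NDUFA7 and UQCRBP1. Pearson's r across members was 0.76 and Spearman's rho 0.75, a description over genes that share 2 libraries and, where they lie close together, the same neighbours. The median size of the members' difference was 0.36, and 0.15 once the neighbours' median was taken off. SDHA lay well outside this pattern, at 1.40 beside 0.64 for its 25 neighbours. DNA copy number was not measured here, and its part in the result was not tested. Agreement with neighbours was not computed for all genes tested, so it is not shown to be particular to the members.

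**Figure D4:**
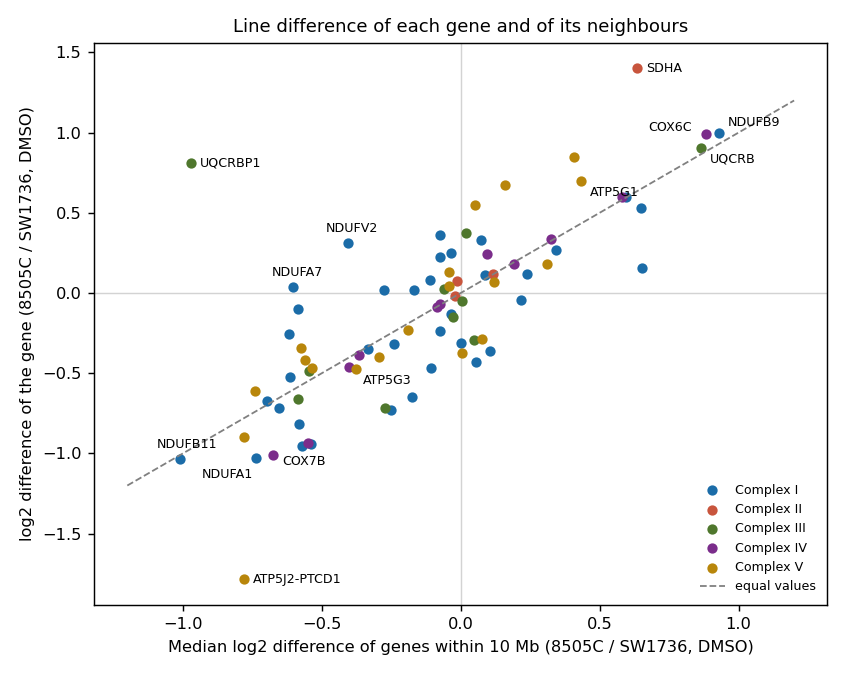
Log2 difference of each gene between 8505C and SW1736 in DMSO (vertical) against the median difference of the genes within 10 Mb (horizontal), coloured by complex. The dashed line marks equal values. Most genes lie along it, with the chromosome 8 genes NDUFB9, COX6C and UQCRB at the upper end, the chromosome X genes NDUFB11, NDUFA1 and COX7B at the lower end, and SDHA and UQCRBP1 above it.

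The same ordering was seen between the DHT libraries. Of 26 members at least 1.5-fold apart between the lines in DMSO, 25 lay in the same direction in DHT and 18 were at least 1.5-fold apart there. The like shares of all genes tested were not computed, so this is not shown to be particular to the members. At least 2-fold higher in 8505C with DHT were 4 members, against 24.7% of all genes tested, and at least 2-fold lower were 7, against 10.6%. At 1.5-fold, 13 were higher, against 40.9%, and 16 were lower, against 17.1%. Among the higher ones were SDHA at 1.84, NDUFC2 at 1.73 and NDUFS1 at 1.05 in 8505C over SW1736. NDUFC2 and NDUFS1 are among those lower in SW1736 with DHT than with DMSO, and both comparisons use that DHT library. The 7 lower ones were NDUFA1, NDUFB11, NDUFB2, NDUFA11, COX7B, COX6B1 and ATP5J2-PTCD1, from -1.04 for NDUFA11 to -1.17 for COX6B1 apart from ATP5J2-PTCD1, listed at 0 in 8505C. Across the 81 members, which share libraries and chromosomes, Pearson's r between this difference and the median of the neighbouring genes was 0.63 and Spearman's rho 0.65. The median of all genes was 0.37 in this comparison and that of the members -0.06.

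Where a subunit is encoded by several genes, both lines used the common forms. COX4I2, COX6A2, COX7B2 and COX8C, forms of lung, muscle or testis, were listed at 0 in every library. COX6B2, a form of testis, reached at most 0.271 TPM and COX7A1, a form of heart and skeletal muscle, at most 0.301 TPM, while COX6B1 had at least 314 TPM and COX7A2 at least 211 TPM. UQCRHL held 58.8 TPM in 8505C with DHT, 64.8 TPM in 8505C with DMSO, 80.1 TPM in SW1736 with DHT and 63.8 TPM in SW1736 with DMSO, between 11.7% and 14.6% of its sum with UQCRH. Its coding sequence differs from that of UQCRH at 4 of 276 bases, so how reads divide between these 2 genes is uncertain.

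Subunit c forms the membrane ring of the ATP synthase, which turns as protons pass, and ATP5G1, ATP5G2 and ATP5G3 encode the same mature protein behind different import sequences. Their coding stretches for the mature subunit are shown because the letters differ although the product does not, which is what lets reads be told apart. They are from GENCODE 29 transcripts, 225 bases each, 5′ to 3′ in the sense direction. Capitals mark the 52 positions at which the 3 are not all alike.
ATP5G1: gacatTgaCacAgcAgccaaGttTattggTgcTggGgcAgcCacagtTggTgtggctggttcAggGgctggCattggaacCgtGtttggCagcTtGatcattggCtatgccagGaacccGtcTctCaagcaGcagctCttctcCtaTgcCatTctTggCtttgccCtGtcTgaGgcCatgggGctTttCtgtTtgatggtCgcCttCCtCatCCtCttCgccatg
ATP5G2: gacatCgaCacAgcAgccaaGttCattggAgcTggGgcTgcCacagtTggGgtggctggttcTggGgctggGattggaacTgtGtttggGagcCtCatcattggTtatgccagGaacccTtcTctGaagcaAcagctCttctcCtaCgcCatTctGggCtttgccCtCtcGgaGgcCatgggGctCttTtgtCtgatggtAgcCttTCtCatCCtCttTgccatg
ATP5G3: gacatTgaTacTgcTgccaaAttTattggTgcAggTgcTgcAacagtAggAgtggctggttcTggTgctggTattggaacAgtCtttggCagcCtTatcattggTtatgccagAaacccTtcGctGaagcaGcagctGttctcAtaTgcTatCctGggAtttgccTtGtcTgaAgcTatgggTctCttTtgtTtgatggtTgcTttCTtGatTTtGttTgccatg

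All 3 stretches encode the same 75 residues. ATP5G1 and ATP5G2 share 88.9% of bases, and ATP5G3 shares 81.3% with either. The summed level of the 3 was 1062 TPM in 8505C with DHT, 1005 TPM in 8505C with DMSO, 919 TPM in SW1736 with DHT and 839.6 TPM in SW1736 with DMSO. The make-up differed by line and little by treatment. ATP5G1 (chromosome 17, 48892786 to 48895870) gave 51.2% of the sum in 8505C with DHT and 50.7% in 8505C with DMSO, against 37.0% in SW1736 with DHT and 37.4% in SW1736 with DMSO. ATP5G2 (chromosome 12, 53665160 to 53676728) gave 34.2% and 34.1% in 8505C and 40.2% and 37.3% in SW1736, DHT first. ATP5G3 (chromosome 2, 175176258 to 175181762) gave 14.6% and 15.2% in 8505C and 22.8% and 25.3% in SW1736. As a level, ATP5G1 had 509 TPM in 8505C with DMSO and 314 TPM in SW1736 with DMSO, and ATP5G3 had 153 and 213 TPM, whereas ATP5G2 had 343 and 313 TPM.

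**Figure D5:**
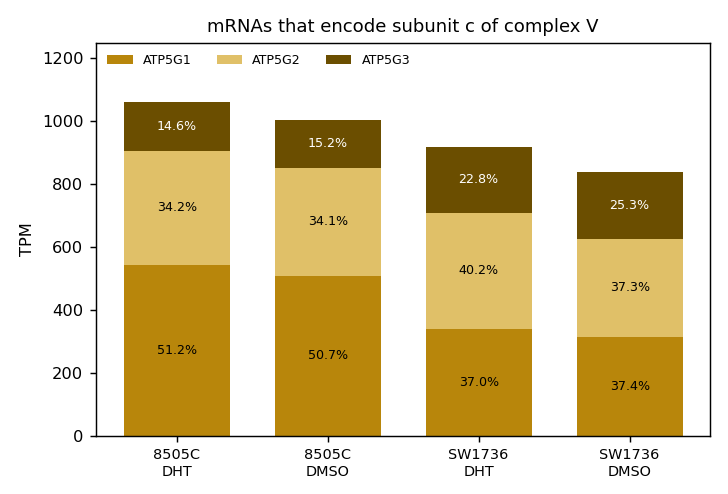
TPM of ATP5G1, ATP5G2 and ATP5G3, the genes of subunit c of complex V, stacked for each library from 0, with the percent of the sum on each block. ATP5G1 holds 51.2% and 50.7% of the sum in 8505C with DHT and DMSO, and 37.0% and 37.4% in SW1736 with DHT and DMSO.

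Genes that build and supply the complexes were read from lists drawn up with earlier results known. In SW1736 with DHT against DMSO, their medians lay between those of the members and of all genes for most lists. The 16 complex I assembly factors had a median of -0.33, with none at least 2-fold apart, from NDUFAF3 at 0.38 to TMEM186 at -0.93. Of 4 complex II factors, with a median of -0.59, none was 2-fold apart. Of 6 complex III factors, with a median of -0.22, LYRM7, which guides the Rieske protein, was lower at 5.09 TPM with DHT and 15.3 TPM with DMSO, a log2 difference of -1.42. Of 23 complex IV factors, with a median of -0.30, COA5 was lower at 7.65 TPM with DHT and 19.7 TPM with DMSO, a difference of -1.26. The 22 import genes were closest to the members, with a median of -0.04 and none 2-fold apart.

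Of 13 genes that copy and transcribe mitochondrial DNA, 4 were at least 2-fold lower, against 15.6% of all genes tested, and none was 2-fold higher. Their median was -0.87, against -0.42 for all genes tested. The 4 were MTERF1 at -2.06, MTERF2 at -1.17, TEFM, an elongation factor, at -1.12 and MGME1, a nuclease, at -1.05. TFAM, which packages mitochondrial DNA and starts its transcription, had 25.8 TPM in SW1736 with DHT and 51.8 TPM in SW1736 with DMSO, a difference of -0.98. It also had 32.8 TPM in 8505C with DHT and 46.6 TPM in 8505C with DMSO, a difference of -0.49. Of 17 genes of the tricarboxylic acid cycle, with a median of -0.28, SUCLA2, a subunit of succinyl-CoA synthetase, was 2-fold lower at -1.09.

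Of 10 measured regulators, GABPA and PPARA were at least 2-fold lower, a share near the 15.6% of all genes tested, and the median of the 10 was -0.37, near the -0.42 of all genes tested. GABPA, the DNA-binding part of GABP, had 6.20 TPM in SW1736 with DHT and 15.2 TPM in SW1736 with DMSO, a difference of -1.17, and it overlaps ATP5J on the opposite strand. NRF1, the nuclear respiratory factor, had 16.0 TPM with DHT and 16.2 TPM with DMSO, a difference of -0.02. PPARGC1A, a coactivator of these factors, was listed at 0 in both SW1736 libraries. In the list of uncoupling, mitophagy and stress genes, PDK1, a kinase that holds back pyruvate entry to the cycle, had 38.7 TPM in SW1736 with DHT and 9.65 TPM in SW1736 with DMSO, a difference of 1.90. BNIP3, a mitophagy receptor, had 259 TPM with DHT and 106 TPM with DMSO, a difference of 1.28, and PDK3 was lower at -1.36. The 30 ribosomal protein genes with short mRNAs, taken as a check of scaling, had a median of 0.38, and all 30 lay above the median gene. In 8505C none of the genes on these lists of mitochondrial genes was at least 2-fold apart between DHT and DMSO.

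Between the DMSO libraries, all 3 measured complex V assembly factors were at least 2-fold higher in 8505C, against 9.96% of all genes tested. ATPAF2, which chaperones the alpha subunit, had 37.3 TPM in 8505C and 8.32 TPM in SW1736, a difference of 2.04, TMEM70 stood at 1.05 and ATPAF1, which chaperones the beta subunit, at 1.00. Of the complex IV factors COA3 stood at 1.12, TACO1 at 1.30 and PET100 at -1.03. These genes, like the members, were on chromosomes whose other genes differed in the same direction where they lay on chromosomes 8, 17 and 19. ATPAF1, on chromosome 1, was the exception, with a median of -0.01 for the other genes there.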

How the data were processed

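Per the labels, mRNA libraries were made with the Universal Plus mRNA-Seq kit from RNA of 8505C and SW1736 cells after 24 h with 1.5 µM DHT or DMSO. The submitters' processing notes name hg38, bcl2fastq 2.20 and StringTie. No source used here gives the aligner, annotation, strand setting or StringTie version. Per the file headers, each row of a deposited table holds the mean coverage, FPKM and TPM of a gene at a locus. The authors' TPM adds up to 1000000 per library. FPKM as deposited was used as an alternative, and coverage as deposited only for depth (3.27 to 4.15 Gb of aligned bases).

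Rows of a Gene ID were summed (1446 IDs had several rows). Of 26485 Gene IDs, 23758 matched a RefSeq symbol, 823 matched through GENCODE 29 and 790 by synonym, and 1114 did not match. Differences are log2 of (TPM + 1) in the first group over (TPM + 1) in the second, with no test, since each group has 1 library. Counts use 2-fold, with 1.5-fold and 1.2-fold where stated. Annotated mRNA lengths are medians over protein-coding GENCODE 29 transcripts with a RefSeq match. Promoters are RefSeq sequences. Python 3.11.15, pandas 2.3.3, numpy 2.4.6, scipy 1.17.1 and matplotlib 3.10.9 were used, and the fold and count steps were tested on simulated data.

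The members and lists were chosen with earlier results of these data known. The genes named were the core subunits, the paralogue sets, the highest and lowest of each complex in each comparison, members at least 2-fold apart and the highest TPM of each complex; some genes these rules name are not reported here. Others, such as those named by chromosome, neighbours or length, were chosen after their values were seen. Alternatives were other pseudocounts, filters and thresholds, FPKM, centring, single-locus genes, all Gene IDs and bins of mRNA length, and, added after the data were seen, bins of GC content, read-through sums and members without overlaps.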

Additional observations from a re-analysis of the deposited data

Results flagged for a closer look

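NDUFA11 lay on opposite sides of 0 in the lines: its log2 difference of DHT over DMSO was 0.5306 in SW1736 and -0.412 in 8505C. With 1 library per group, this contrast of the lines was not tested. The read-through NDUFC2-KCTD14, which is outside the members, was listed at 23.62 TPM in SW1736 with DHT and at 0 in the other 3 libraries.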

How the results depend on the processing

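In 8505C the median and both counts of members 2-fold apart stayed where they were under every alternative. In SW1736 the members' median (0.00) stayed within 0.1 under 8 of 12 alternatives, length bins among them, and moved to 0.2208 with FPKM, 0.419 centred on the median gene, 0.4039 centred on all Gene IDs and 0.3937 by GC bin. Deposited FPKM summed to 511866 in SW1736 with DHT and 438583 in SW1736 with DMSO, while TPM has the same sum in both. The cause was not tested beyond that centring shifts every gene by the same amount. Of the members at least 2-fold lower there, 2 became 5 at 1.5-fold, and 1 with FPKM, with either centring, by GC bin, by length bin, with a pseudocount of 5, without overlapping members and with read-throughs added. None higher became 1 at 1.5-fold, with either centring and by GC bin. Between the DMSO libraries the median (-0.09) moved to 0.0293 by GC bin. The single member 2-fold higher in 8505C became 10 at 1.5-fold, 3 with either centring or by length bin, and 2 by GC bin or with a pseudocount of 0.1. The 4 lower became 16 at 1.5-fold, 1 with either centring or a pseudocount of 5, and 2 by GC bin, by length bin or without overlapping members. No paired analysis was possible because each comparison within a line sets 1 library against 1. A fit over both lines, with line as a term, was not run. With 1 library per group, neither biological nor technical spread is known, read numbers are unknown and no counting interval can be given. The lowest members, ATP5J2-PTCD1, UQCRBP1, ATP5EP2 and ATP5S, rest on the least coverage.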
